A study of Mus musculus with 15 samples.

Results

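A set of 10 liver genes was followed through the transcript tables by name: Afp, Alb, Apoa1, Apoa2, Ahsg, Fgg, Fgb, Fga, Serpind1 and Nr1h5. All 10 were present among the 30534 features. The list was drawn up by name as fetal liver secreted protein genes, and 9 of its members encode plasma proteins. The remaining 1, Nr1h5, encodes a nuclear receptor that is not secreted, so the name of the list does not cover it. The sections came from mouse embryos of embryonic day 10, 11 or 12 (E10, E11, E12) and were measured by microfluidic barcoding in tissue. In that method barcodes flow over a frozen section through parallel channels, first along one axis and then along the other, and every crossing of 2 channels forms a pixel that carries 1 combination of barcodes. Pixels were 10, 25 or 50 µm wide. The 11 transcript libraries comprised 6 at E10 (3 at 50 µm, 1 at 25 µm and 2 at 10 µm), 4 at E11 (2 at 25 µm and 2 at 10 µm) and 1 at E12 (50 µm). The labels give no genotype, strain or treatment for any group, and do not say which embryo or which region of an embryo a section came from. P-values below therefore measure the spread between these sections, which may be technical, and stage cannot be told apart from the region that was cut. None of the 3 widths was used at every stage.

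The fetal liver grows from foregut endoderm as hepatoblasts invade the neighbouring septum mesenchyme, and it soon makes most of the proteins of the blood plasma while also housing red cell formation. Afp (alpha-fetoprotein) is the main carrier protein of fetal plasma, and Alb (albumin) takes its place as the liver matures. The 2 genes are neighbours on chromosome 5 and are descended from a common ancestor. Apoa1 and Apoa2 encode the main apolipoproteins of high-density lipoprotein, and Apoa1 is made in the intestine and yolk sac as well as in the liver. Fga, Fgb and Fgg encode the 3 chains of fibrinogen, which assemble into 1 clotting protein. Serpind1 encodes heparin cofactor II, an inhibitor of thrombin, and Ahsg encodes fetuin-A, a carrier that limits mineral deposition. Nr1h5 encodes FXR-beta, a relative of the bile acid receptor FXR. Liver transcription of many of these genes depends on factors of the HNF4 and C/EBP families.

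The promoters of 4 members are shown. They are the 3 members that hold the motif marked here, and Nr1h5, most of whose counts lay outside the liver patches described below in the E11 25 µm sections. The sequences are RefSeq entries on GRCm38.p6 and run from 250 bases before the annotated start to 50 bases after it, 5′ to 3′ on the strand of the gene. Capitals mark a match to the motif GTTAATNAT, which is found in liver promoters, on either strand.
Alb, chr5:90460620-90460919, plus strand: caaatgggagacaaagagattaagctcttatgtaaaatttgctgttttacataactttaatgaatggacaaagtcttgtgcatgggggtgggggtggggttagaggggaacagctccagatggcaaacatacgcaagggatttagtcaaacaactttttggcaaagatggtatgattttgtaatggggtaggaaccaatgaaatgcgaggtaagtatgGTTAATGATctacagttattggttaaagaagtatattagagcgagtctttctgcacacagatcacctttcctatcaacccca
Afp, chr5:90490464-90490763, plus strand: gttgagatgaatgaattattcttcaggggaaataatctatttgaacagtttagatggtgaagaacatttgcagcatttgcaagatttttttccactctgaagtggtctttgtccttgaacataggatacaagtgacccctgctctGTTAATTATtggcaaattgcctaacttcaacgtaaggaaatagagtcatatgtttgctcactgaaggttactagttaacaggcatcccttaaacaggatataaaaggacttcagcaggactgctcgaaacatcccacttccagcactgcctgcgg
Fga, chr3:83025903-83026202, plus strand: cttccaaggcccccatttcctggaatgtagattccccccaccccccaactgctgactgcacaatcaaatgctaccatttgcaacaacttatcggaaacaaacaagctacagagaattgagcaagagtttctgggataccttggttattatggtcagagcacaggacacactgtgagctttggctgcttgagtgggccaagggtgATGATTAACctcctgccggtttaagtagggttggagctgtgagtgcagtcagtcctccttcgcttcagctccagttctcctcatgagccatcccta
Nr1h5, chr3:102964084-102964383, minus strand: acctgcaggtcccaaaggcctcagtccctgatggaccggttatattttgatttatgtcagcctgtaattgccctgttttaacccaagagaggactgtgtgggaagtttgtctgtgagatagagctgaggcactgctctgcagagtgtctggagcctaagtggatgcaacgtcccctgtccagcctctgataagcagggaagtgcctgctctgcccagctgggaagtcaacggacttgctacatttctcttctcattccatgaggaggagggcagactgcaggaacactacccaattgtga
The GTTAATNAT match began 32 bases before the start in Alb, 105 in Afp and 46 in Fga, where it was on the opposite strand. These were the 3 of 10 members with this motif, which was in 0.801% of the 32851 promoters of the table. The other plasma protein genes lacked it like Nr1h5, although most of their counts lay in the liver patches described below. The C/EBP-type motif TTGCNNAA was in promoters of 6 members (Afp, Alb, Apoa2, Ahsg, Fgb and Fga) and in 10.8% of all promoters. It did not overlap the GTTAATNAT match in any of the 3 genes that had both, and in Afp it began 89 bases before the start. TATAAA was found in 2 members, Afp and Apoa2, and in 13.6% of all promoters, and the HNF4-type motif CAAAGTCCA in 0 members and 0.475%. Nr1h5, Apoa1, Fgg and Serpind1 held none of the 4 motifs. A match is a run of letters and not a measured binding site. Alb ends 14134 bases before Afp begins, and the 3 fibrinogen genes lie within 42.1 kb of chromosome 3. Apoa2 is on chromosome 1, Apoa1 on chromosome 9, and Ahsg and Serpind1 are on chromosome 16 (GENCODE M21, GRCm38).

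Each library held 829 to 2271 tissue pixels and 1563489 to 11998765 gene counts in them. Pooled over the libraries of a stage, 3 counts corresponded to 0.0609, 0.166 and 0.462 counts per 1000000 counts (CPM) at E10, E11 and E12. Genes that were absent at E10 were thus looked for at greater total depth than at the later stages. Intervals in brackets are exact 95% intervals, and they cover counting error only. CPM values are not corrected for transcript length, so they compare a gene between libraries and not 1 gene with another.

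Liver was located without the 10 genes, by 20 other hepatocyte genes such as Apoh, F2, Rbp4 and Hnf4a. A tissue pixel was called liver-like when its 3 x 3 window held at least 5 counts of these genes and at least 1000 of them per 1000000 counts, and at least 10 touching pixels made a patch. A pixel is a small region that can hold several cells, so the term describes a place and not a cell type. A patch was found in 4 of 11 libraries, in 0 of 6 at E10, 3 of 4 at E11 and in the E12 library. E11 25 µm replicate 1 had 213 liver-like pixels, 154 of them in its largest patch. E11 25 µm replicate 2 had 150, with 132 in the largest patch. E11 10 µm replicate 2 had 597, with 587 in the largest patch, and these pixels held 50.5% of its counts. The E12 section had 483, of which 287 and 117 formed 2 large patches. E11 10 µm replicate 1 had none, and it was also the E11 section with the lowest level of every member.

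Summed over the 10 genes, the members held 2.82 to 6.96 CPM in the 6 E10 libraries. At E11 they held 1132 and 1519 CPM in the 25 µm sections, 3644 in 10 µm replicate 2 and 56.0 in 10 µm replicate 1. The E12 section held 3427 CPM, which was 0.343% of all its counts. The E10 and later libraries did not overlap on this sum, and the E11 section without a patch lay between them. In summed counts, fewer liver cells in a section and less RNA per liver cell cannot be told apart.

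Afp had few counts at E10 and many in the later libraries. It had 1, 0 and 23 counts in the E10 50 µm libraries, 0 at 25 µm and 2 and 0 at 10 µm. The 23 counts of E10 50 µm replicate 3 (2.16 CPM) lay in 23 separate pixels, of which 4 touched another, so they formed no patch. At E11 Afp reached 703 and 1124 CPM at 25 µm, 41.6 and 2727 CPM at 10 µm, and it held 1983 CPM at E12. Every later library was above every E10 library. E11 10 µm replicate 1 held 107 Afp counts in 100 pixels, which was 360-fold (97.3 to 3011) the pooled level of the 2 E10 10 µm libraries, although it had no liver-like patch.

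Alb appeared in the same libraries as the bulk of Afp. It had 13 counts in E10 50 µm replicate 3, in 13 pixels, and 0 in the other E10 libraries. At E11 it held 59.0 and 84.0 CPM at 25 µm and 1.56 and 170 CPM at 10 µm. The E12 section held 679 CPM, above all 4 E11 sections, and in 51.1% of its tissue pixels there was an Alb count, against 8.63% to 13.6% in the 3 E11 sections with a patch. Pixels were 50 µm wide at E12 and 25 or 10 µm at E11, so these shares of pixels are not like for like. Ahsg came last. It had 2 counts in 6 E10 libraries and 10, 8, 0 and 1 counts in the E11 sections (at most 1.97 CPM), and then 466 counts, 71.7 CPM, at E12. The E12 level of Ahsg was 68.1-fold (43.1 to 114) the pooled E11 level, while that of Afp was 1.81-fold (1.77 to 1.85) and that of Alb 8.67-fold (8.16 to 9.21). These ratios compare 1 section with 4 and carry counting error only.

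The apolipoprotein genes differed from the other members at E10, because both had counts in all 6 libraries. Apoa1 had 12, 2 and 17 counts at 50 µm, 4 at 25 µm and 15 and 15 at 10 µm, which was 0.238 to 2.83 CPM. Apoa2 had 17, 30, 19, 1, 43 and 10 counts in the same order, 0.640 to 3.58 CPM. A pixel never held more than 3 counts of Apoa2 at E10. At E11 Apoa1 held 68.1 and 56.1 CPM at 25 µm and 2.72 and 109 at 10 µm, and Apoa2 held 209, 169, 6.61 and 458. In E11 10 µm replicate 1 Apoa1 was thus within the E10 range, at 1.57-fold (0.582 to 3.65) the pooled E10 10 µm level. At E12 Apoa1 reached 246 CPM and Apoa2 275 CPM, so Apoa2 was lower in that section than in E11 10 µm replicate 2.

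Of the clotting genes, Fga and Fgb had 0 counts in all 6 E10 libraries, which allows up to 0.0609 CPM over the stage. Fgg had 3 counts there and Serpind1 had 1. In the 25 µm sections of E11, Fga held 8.88 and 10.5 CPM, Fgb 25.7 and 39.9, Fgg 41.1 and 15.4, and Serpind1 9.67 and 11.2. In 10 µm replicate 2 the same 4 genes held 23.7, 58.0, 53.2 and 21.9 CPM, and in replicate 1 they had 0, 1, 4 and 2 counts. At E12 they held 31.4, 72.5, 30.6 and 33.2 CPM. Fga, Fgb and Serpind1 were higher in the E12 section than in each E11 section, whereas Fgg lay within the E11 range. Against the pooled E10 sections of 25 and 10 µm, where all 3 had 0 counts, the pooled E11 level was at least 208-fold higher for Fgb, at least 66.5-fold higher for Fga and at least 68.6-fold higher for Serpind1.

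Nr1h5 had 1 count in each of 2 E10 libraries and 0 in the other 4. It held 4.93 and 7.55 CPM in the E11 25 µm sections, 0.778 and 21.9 CPM at 10 µm and 4.62 CPM at E12. It was the member whose E12 level lay below the pooled E11 level, at 0.575-fold (0.374 to 0.856), and it was within the range of the 4 E11 sections. The pooled E11 level was at least 50.5-fold higher than in the E10 sections of 25 and 10 µm, which had 0 counts. Serpind1 and Nr1h5 had equal counts in both E11 10 µm sections (2 and 60) but not in the same pixels.

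The difference between stages was then tested on counts summed over tissue pixels, with edgeR's quasi-likelihood test over all 18233 genes that passed its filter; all 10 members passed. For E11 against E10, averaging the change within each of the widths 25 and 10 µm, 2 of 10 members were called higher at an adjusted p under 0.05, against 1.93% of all genes tested. These were Serpind1 (edgeR adjusted p = 0.0385) and Nr1h5 (edgeR adjusted p = 0.0361), both of which earlier results from the same contrast had already named, so the calls are a description. By edgeR, 8 members had an unadjusted p under 0.05, and the lowest adjusted p among those not called was 0.0622, for Fgg. The median log2 fold change was 9.25 over the 10 members and 0.05 over all genes. With the 5 members that had 0 counts in the E10 libraries of that contrast set at their lower bounds, the members' median was 6.73. All 4 E11 libraries lay above all 6 E10 libraries for 7 of 10 members, against 3.41% of genes. The exceptions were Apoa1, Ahsg and Fga, and in each of them E11 10 µm replicate 1 was the section that overlapped.

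The number of called members depended on single libraries, most of all on the section without a patch. Without E11 10 µm replicate 1, edgeR called 9 of 10 members for E11 against E10, all but Ahsg (edgeR adjusted p = 0.168), while its calls over all genes, in both directions, went from 656 to 1465. For Afp the log2 fold change was then 15.07 and for Apoa2 7.86. Afp had 0 counts at E10 25 µm and 2 at 10 µm, so the size of its fold change is poorly determined. Without E11 10 µm replicate 2 the count was 4, without E11 25 µm replicate 2 it was 1, and without any one of the 6 other libraries that could be left out it was 0. DESeq2 called 7 members and 1392 genes.

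For E12 against E10 at 50 µm, where 1 section was compared with 3, edgeR called 2 of 10 members higher, again against 1.93% of all genes. Ahsg rose most clearly, from 1 count in 3 libraries to 466 (edgeR log2 fold change 10.39 ± 0.80 SE, adjusted p = 3.18e-05), a ratio of 2178 (389 to 86192). That call had also been seen before. Serpind1 rose from 1 count to 216 (edgeR log2 fold change 9.30 ± 1.40 SE, adjusted p = 0.0158), a ratio of 1009 (179 to 40049). The other 8 had edgeR adjusted p from 0.0552 (Fgg) to 0.296 (Fgb), and all 10 had an unadjusted p under 0.05. The members' median log2 fold change was 9.84, or 8.88 with Fga and Fgb at their lower bounds, against -0.04 over all genes. The E12 library lay above all 6 E10 libraries for 10 of 10 members, against 24.0% of genes. Without either of the E11 10 µm libraries, which enter this fit only through the shared spread, edgeR called all 10 members. Its calls over all genes then went from 390 to 969 and 953. Without any one of the E10 50 µm or E11 25 µm libraries it called 1.

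Between the 2 widths at E11, edgeR called 0 of 10 members higher at 10 µm, against 1.62% of genes, and 0 lower, with an unadjusted p under 0.05 for 1 member (Ahsg). The sections of 10 µm differed from each other by more than the widths did: Afp was 41.6 and 2727 CPM in that group. Without E11 10 µm replicate 2, edgeR called 5 members, all lower at 10 µm, with 283 calls over all genes against 378, and DESeq2 called 0 with all libraries. By the edgeR interaction test, 0 of 10 members were called for a stage change that differed between 10 and 25 µm. The lowest edgeR adjusted p was 0.812, for Ahsg, with 0 unadjusted p under 0.05, and DESeq2 was not run on this test. Alb, Fgb, Fga, Serpind1 and Nr1h5 had 0 counts in the E10 libraries of both widths. For these 5 the test could not call a difference, since E10 held no counts to measure a stage change from. Afp, Ahsg and Fgg had 0 counts at E10 25 µm and 2, 1 and 1 at 10 µm, so for them too the test had little to measure from.

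**Figure D1:**
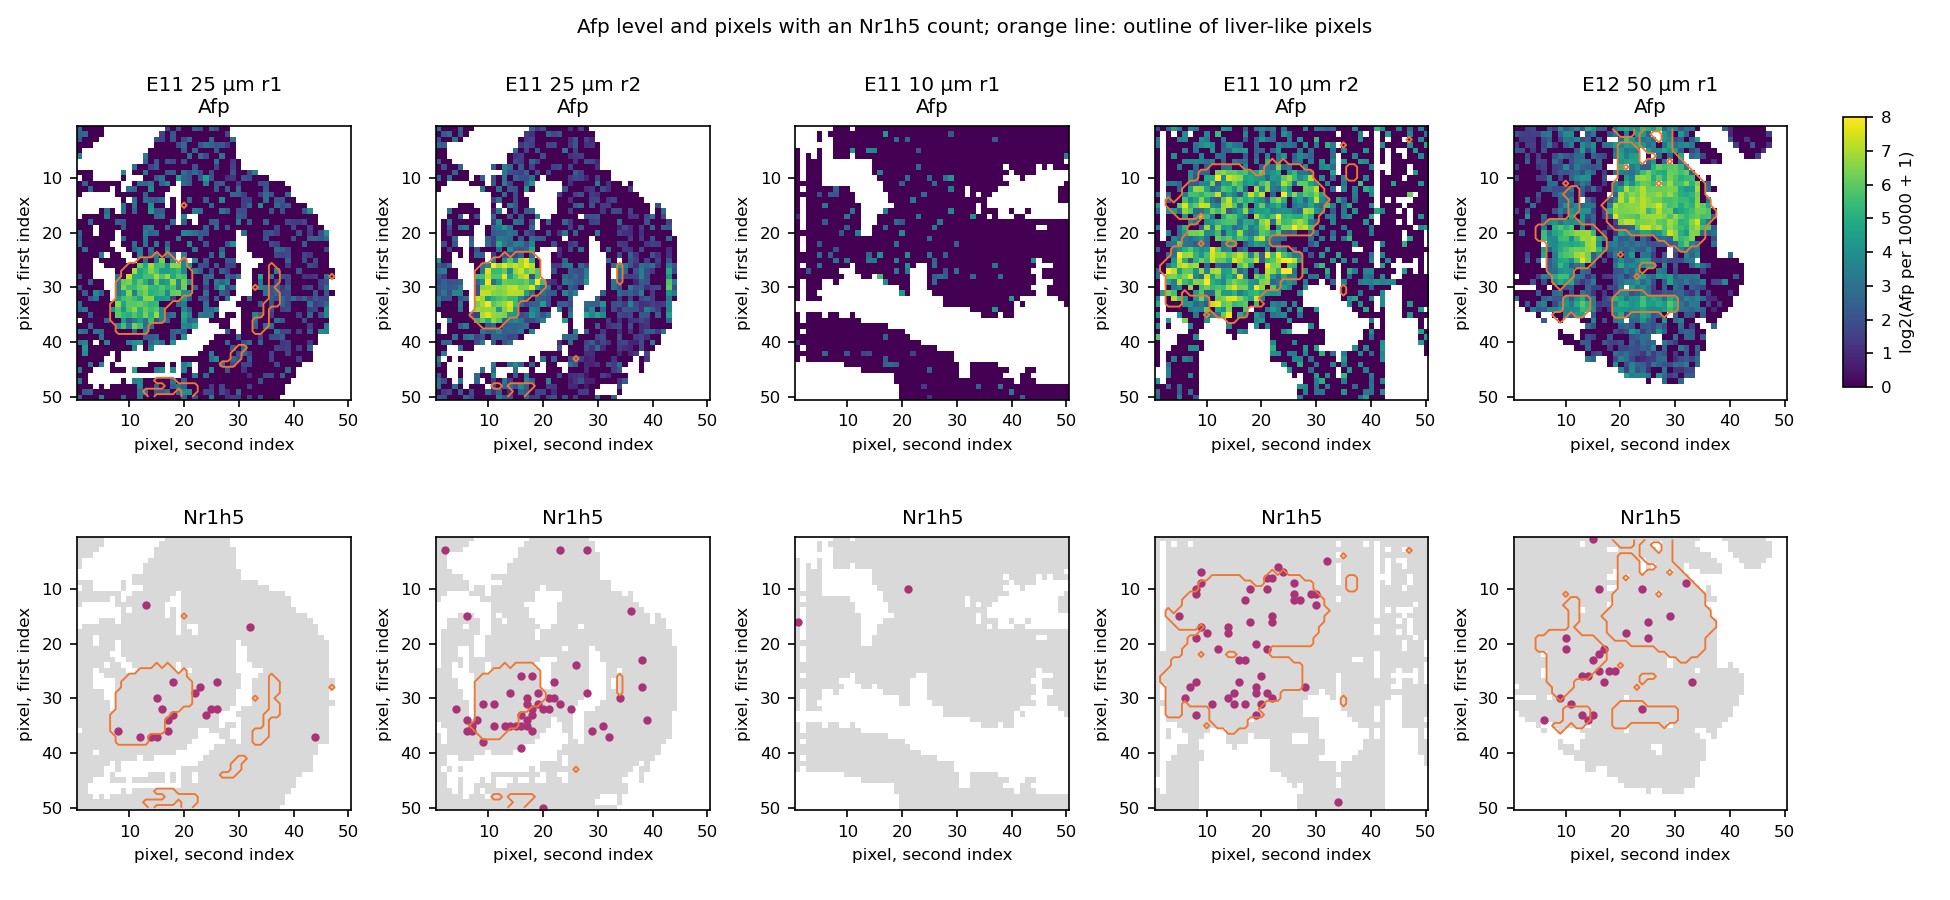
Maps of the 5 sections of E11 and E12, one square per tissue pixel at its grid position, with the Afp level as log2(count per 10000 + 1) above and each pixel with an Nr1h5 count as a dot below; the orange line outlines liver-like pixels, which were found without either gene. Afp filled the large outlined patches in 4 sections, and in both E11 25 µm sections most Nr1h5 dots lay at or outside the rim of the patch (7 of 25 and 18 of 58 counts were in liver-like pixels).

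Within the 4 sections with a patch, most counts of the 9 plasma protein genes lay in liver-like pixels. In E11 25 µm replicate 1 these pixels held 15.8% of all counts but 80.0% of Afp counts, 72.9% of Alb, 91.0% of Apoa1 and 90.8% of Apoa2. For Fgg, Fgb, Fga and Serpind1 the shares were 76.4%, 84.6%, 88.9% and 83.7%, and for Ahsg 8 of 10 counts. In replicate 2, with 11.8% of all counts, Afp was at 85.1%, Alb at 77.5%, Apoa1 at 83.5% and Apoa2 at 91.1%. Alb had the lowest share of the 9 genes in both of these sections. The median over the 10 members was 81.8%, 85.2%, 90.9% (E11 10 µm replicate 2) and 88.5% (E12). In the last 2 sections the liver-like pixels held 50.5% and 31.9% of all counts, and each plasma protein gene had a share between 85.8% (Fga at E12) and 94.3% (Fgb at E11 10 µm), apart from the single Ahsg count of the E11 10 µm section.

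Nr1h5 stood apart from the other 9 in the 25 µm sections. Its share in liver-like pixels was 28.0% (12.1% to 49.4%; 7 of 25 counts) in replicate 1 and 31.0% (19.5% to 44.5%; 18 of 58) in replicate 2. In E11 10 µm replicate 2 it was 86.7% (75.4% to 94.1%; 52 of 60), the same as Serpind1, and at E12 it was 63.3% (43.9% to 80.1%; 19 of 30). The intervals of Nr1h5 did not overlap that of any other gene with more than 10 counts in both 25 µm sections and at E12.

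**Figure D2:**
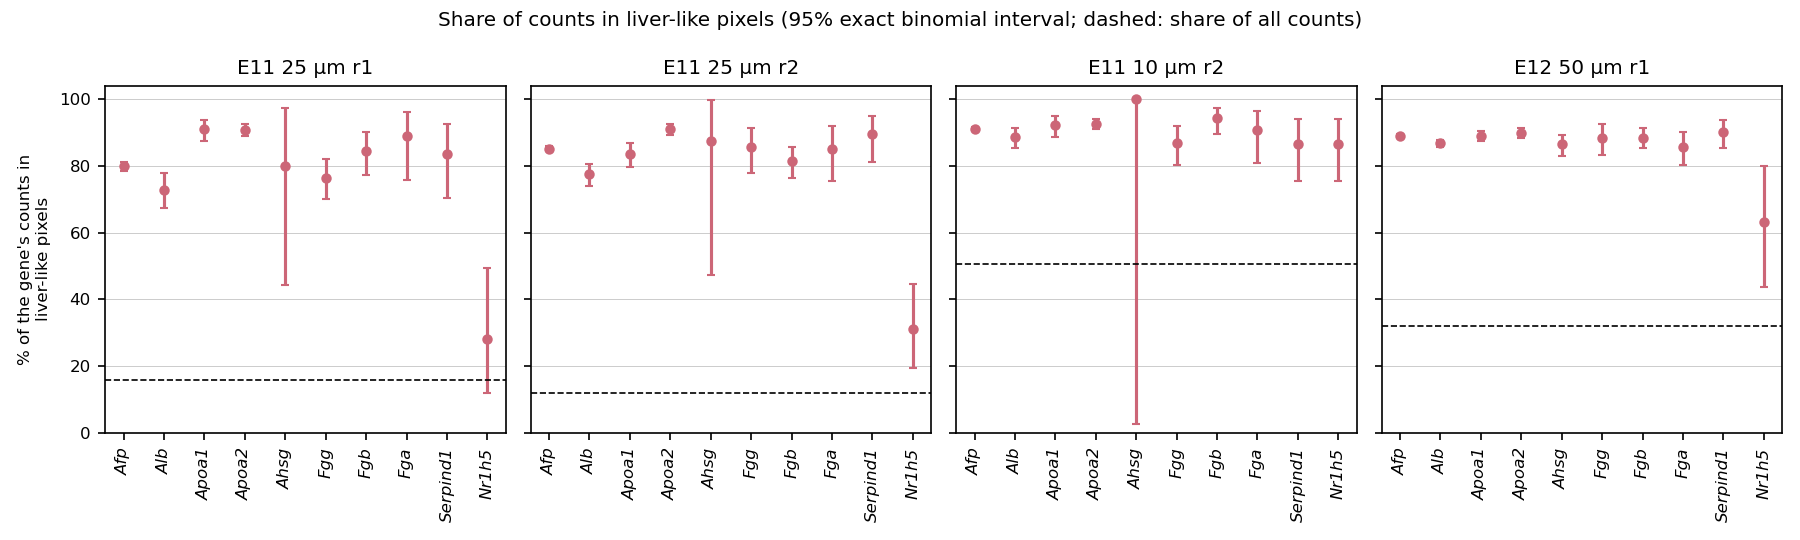
Percent of each gene's tissue counts that lay in liver-like pixels, in the 4 sections with a patch, with exact 95% binomial intervals; the dashed line is the percent of all counts there. The 9 plasma protein genes lie far above the line in the 25 µm sections, while Nr1h5 is at 28.0% and 31.0%, nearer to the line at 15.8% and 11.8%. Its interval includes the line in replicate 1 (12.1% to 49.4%) and lies above it in replicate 2 (19.5% to 44.5%).

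In the E11 25 µm sections the Nr1h5 level was highest just outside the main patch. With distance measured from the largest patch of E11 25 µm replicate 1, Nr1h5 held 3.53 CPM (0.0893 to 19.7; 1 count) more than 2 pixels inside the edge, 17.1 CPM (6.28 to 37.3) in the outer 2 pixels and 44.0 CPM (22.0 to 78.8; 11 counts) in the 2 pixels outside. It held 10.3 CPM at 3 to 5 pixels and 0.791 CPM (0.163 to 2.31) beyond. Replicate 2 showed the same order, with 9.58 CPM (1.98 to 28.0) inside, 29.2 CPM in the outer 2 pixels, 53.2 CPM (32.0 to 83.0; 19 counts) just outside, 8.40 CPM at 3 to 5 pixels and 2.71 CPM beyond. Of the Nr1h5 counts outside the largest patch, 3 in replicate 1 and 16 in replicate 2 were nevertheless more than 5 pixels away, where most of the tissue lay. In both sections the counting intervals of these 2 zones, interior and just outside, did not overlap, although few counts were involved. Over the same step, from the interior to the 2 pixels outside, Afp went from 5235 to 268 CPM and from 8918 to 386 CPM. These zones were drawn after the map had been seen, so the gap between their intervals is a description and not a test. The first ring around all liver-like pixels held 2.40-fold (0.796 to 7.59) and 2.03-fold (0.914 to 4.38) the Nr1h5 level of those pixels. Both of these intervals included 1. On the map both E11 25 µm sections had a similar outline, with the main patch at nearly the same grid position, and whether they were cut from 1 embryo is not given in the labels. They are therefore not known to be independent embryos.

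In E11 10 µm replicate 2 the order of Nr1h5 was another one: 33.1 CPM in the interior, 42.0 in the outer 2 pixels, 15.2 just outside and 1.47 beyond 5 pixels. Pixels of that section were 10 µm wide, so these zones were narrower in tissue than those of the 25 µm sections. In the E12 section the counts were too few to order the zones of the largest patch (3, 3 and 1 counts), and 15 counts lay more than 5 pixels from that patch. The second patch, of 117 pixels, held 21.8 CPM of Nr1h5 (9 counts) against 4.63 CPM (6 counts) in the largest. Afp was higher in the largest, at 6843 against 4636 CPM. The side of the largest patch on which Nr1h5 pixels lay was not the same in all sections. In E11 25 µm replicate 1, 14 of the 16 Nr1h5 pixels in the patch or within 5 pixels of it had a higher second grid index than the patch centre, as did 52.3% of all tissue pixels there. In replicate 2 it was 24 of 35, against 49.6%, and in E11 10 µm replicate 2 it was 30 of 51, against 54.0%. At E12 it was 3 of 14, against 41.4%, so most lay on the other side. The labels do not orient the sections, so the side has no anatomical name here.

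The liver-like rule also found smaller patches at E11 25 µm that the members did not fill. In replicate 1, patches of 25 and 22 pixels held 223 and 388 CPM of Afp and 0 Alb counts, and in replicate 2 a patch of 11 pixels held 281 CPM of Afp and 0 Alb counts, against 4424 and 8844 CPM of Afp in the largest patches. In these 3 small patches Vtn (vitronectin), which other tissues express too, gave 84.6%, 84.9% and 85.7% of the locator counts. In the largest patches the leading locator gene was Apom or Rbp4, with 20.4% and 19.2%. The levels of Afp and Alb thus differed between these places and the main patch.

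**Figure D3:**
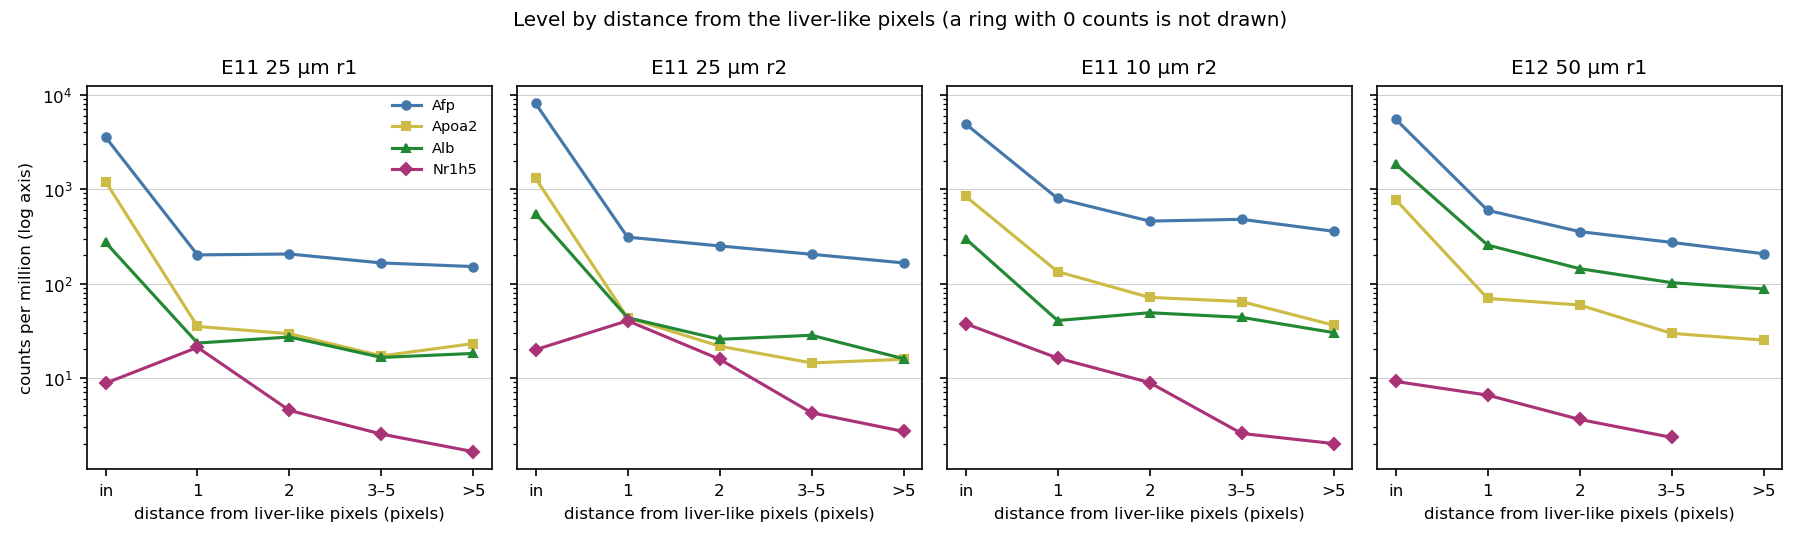
Level of Afp, Apoa2, Alb and Nr1h5 in CPM (log axis) in liver-like pixels and in rings of pixels around them, in the 4 sections with a patch. Rings are counted in pixels, whose width in µm differs between sections. Afp, Apoa2 and Alb are lower from the first ring outwards, while Nr1h5 is highest in the first ring of both E11 25 µm sections, at 21.0 and 40.3. These points rest on 9 and 13 counts, and the intervals of their ratios to the liver-like pixels include 1.

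Outside the liver-like pixels Afp was lower but still above every E10 library. More than 5 pixels from any liver-like pixel, Afp held 151 and 165 CPM in the E11 25 µm sections, 358 CPM in E11 10 µm replicate 2 and 207 CPM at E12, against at most 2.16 CPM in an E10 library. Distance was counted in pixels, which were 25, 10 and 50 µm wide in these sections, so the same number of pixels spans unlike lengths of tissue. Apoa1 held 7.15 to 21.3 CPM there, against at most 2.83 CPM at E10. Ahsg had 1, 1 and 0 counts there in the E11 sections (at most 0.550 CPM) and at most 1 count in an E10 library (0.119 CPM). These counts are too few to compare. For Afp, the liver-like pixels held 21.4-fold (19.7 to 23.2) and 42.8-fold (40.4 to 45.5) the level of all other tissue in the 25 µm sections, 10.0-fold in E11 10 µm replicate 2 and 17.2-fold at E12. In the 25 µm sections the step differed between genes. It was 53.1-fold and 76.2-fold for Apoa2 and 14.4-fold and 25.8-fold for Alb. The make-up of the outside counts of these 2 sections therefore differed from that of the inside. Afp counts per Apoa2 count were 2.96 (2.75 to 3.19) inside and 7.35 (5.94 to 9.18) outside in replicate 1, and 6.21 (5.84 to 6.61) and 11.1 (9.14 to 13.5) in replicate 2. In E11 10 µm replicate 2 the ratios were 5.85 (5.50 to 6.23) and 7.22 (5.80 to 9.08), and at E12 they were 7.14 (6.78 to 7.53) and 7.93 (6.79 to 9.32). In each of these sections the intervals overlapped. Afp counts per Alb count went the other way and were lower outside in each section with a patch. They were 13.1 inside and 8.80 outside in E11 25 µm replicate 1, and 14.7 and 8.85 in replicate 2.

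The distant Afp counts also differed with the grid lines they lay on. Among pixels more than 5 pixels away in the E11 25 µm sections, those on a line of the first index that crossed the largest patch held 270 and 352 CPM of Afp. Those on a line of the second index that crossed it held 181 and 190 CPM, and those on neither held 130 and 101 CPM. In E11 10 µm replicate 2 the 3 values were 299, 373 and 396 CPM, so the order was not the same, and at E12 they were 156, 283 and 79.3 CPM. The part of RNA carried along channels in these counts was not tested.

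The proportions among the members changed from E11 to E12. Afp counts per Alb count were 11.9, 13.4 and 16.0 in the 3 E11 sections with a patch and 2.92 at E12, so Alb was 7.74% (6.92% to 8.63%), 6.95% (6.45% to 7.49%) and 5.88% (5.37% to 6.42%) of the pair at E11 and 25.5% (24.9% to 26.2%) at E12. Apoa2 counts per Apoa1 count were 3.07, 3.01 and 4.22 at E11 and 1.12 at E12. Ahsg made up 0.280%, 0.0926% and 0.0134% of its pair with Afp at E11 and 3.49% (3.18% to 3.81%) at E12. In each of these 3 pairs the E12 value lay outside the range of the 3 E11 sections with a patch and outside their intervals. In E11 10 µm replicate 1, with 7 Apoa1 and 17 Apoa2 counts, the interval of the Apoa1 share (12.6% to 51.1%) held the E12 value of 47.2%. Both genes of a pair were counted in the same pixels of the same library. With 1 section at E12 they could not be tested over samples.

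The fibrinogen chains behaved differently, since their make-up varied as much within E11 as between stages. Fgb was 38.5% (33.2% to 43.9%) of Fgb plus Fgg counts in E11 25 µm replicate 1 and 72.2% (67.6% to 76.4%) in replicate 2. It was 52.1% (46.4% to 57.9%) in E11 10 µm replicate 2 and 70.3% (66.7% to 73.7%) at E12. The 2 replicates of 1 group thus differed beyond counting error, with 208 Fgg counts in the shallower section and 118 in the deeper one. Inside liver-like pixels alone the 25 µm sections held 0.692 (0.538 to 0.888) and 2.47 (1.95 to 3.14) Fgb counts per Fgg count. Fga was 17.8% of Fga plus Fgg counts in replicate 1 and 40.7% in replicate 2, so the other 2 chains differed from Fgg in the same direction. In the annotation Fgg overlaps a long non-coding gene on the opposite strand (Gm30097), as Afp and Ahsg overlap an antisense gene each (Gm43449 and Gm30505). The use of strand in counting is not given in the sources used here, so reads from such a pair cannot be told apart.

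**Figure D4:**
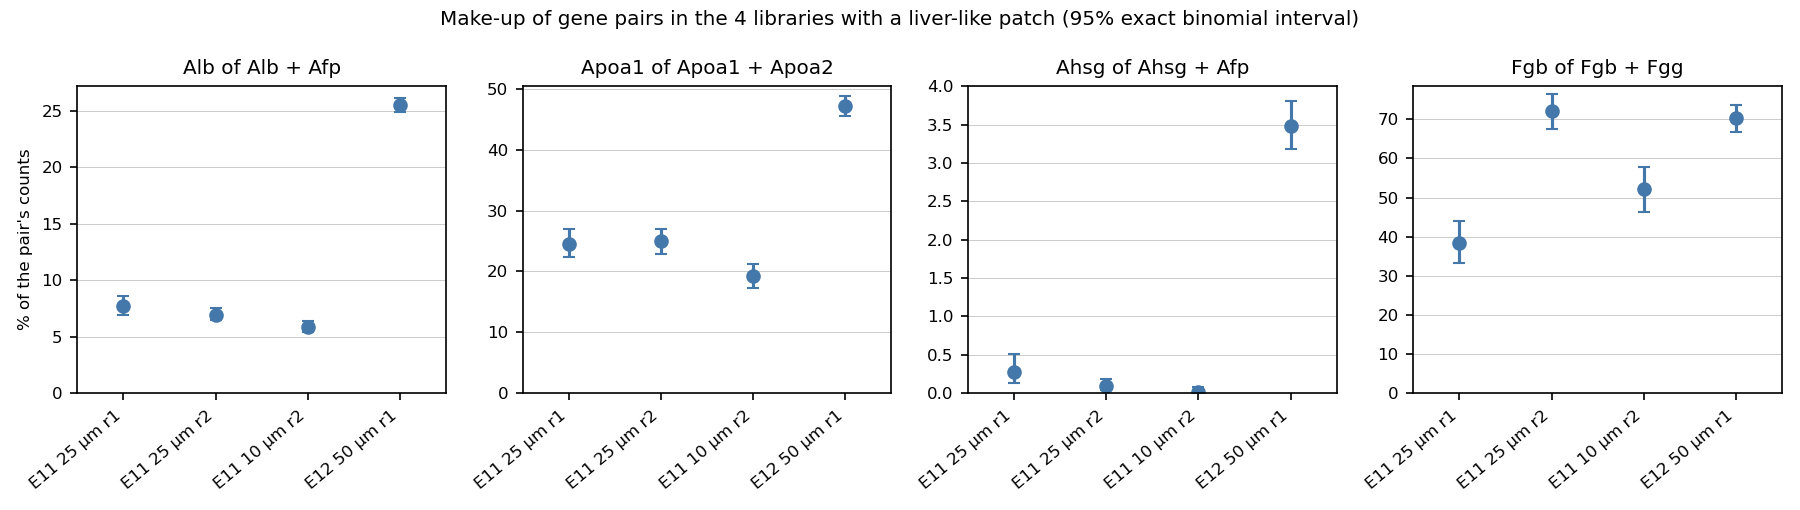
Make-up of 4 gene pairs in the 4 sections with a liver-like patch, as the percent of the pair's tissue counts that belonged to the gene named first, with exact 95% binomial intervals. The E12 point lies above all 3 E11 points for Alb (25.5%), Apoa1 and Ahsg, while for Fgb the 2 E11 25 µm replicates lie at 38.5% and 72.2%.

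Across tissue pixels most pairs of plasma protein genes were positively correlated, while r was near 0 for most pairs with Nr1h5. The median Pearson r of log2(count per 10000 + 1) over the 45 pairs of members was 0.273 (1704 pixels), 0.389 (1504), 0.180 (1930) and 0.365 (1535) in the 4 sections in the order above. Pixels of a section share a library and neighbouring tissue and differ in depth, so these values are descriptions. For Nr1h5 the median over its 9 pairs was between -0.0036 and 0.063 in every section. It had 25 to 60 counts a section. With the summed other members its r was 0.026 in E11 25 µm replicate 1 (25 counts) and 0.084 in E11 10 µm replicate 2 (60 counts). In the same sections the r of Serpind1 was 0.289 (49 counts) and 0.211 (60 counts). Of the pixels with a Serpind1 count, 97.1%, 92.2%, 89.8% and 96.6% had an Afp count too, while 38.6%, 52.8%, 49.3% and 68.4% of all tissue pixels did. Of the pixels with an Nr1h5 count, 47.4%, 66.0%, 82.7% and 74.1% had an Afp count. In the 25 µm sections and at E12 the intervals for Nr1h5 included the share over all tissue pixels, and in E11 10 µm replicate 2 its interval (69.7% to 91.8%) did not. Within liver-like pixels of that section, 86.4% of Nr1h5 pixels had an Afp count, against 85.1% of all such pixels and 100% of Serpind1 pixels. Depth differed too. In E11 25 µm replicate 1 the median was 5078 counts in Serpind1 pixels, 3055 in Nr1h5 pixels and 2530.5 in all tissue pixels.

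The genes most like the summed members across pixels were Ttr (mean r over 4 sections 0.550), Rbp4 (0.539), Itih2 (0.528), Apom (0.525), Serpina6 (0.517), Ambp (0.507), Trf (0.505) and Serpinf2 (0.447), of 4051 genes with a count in at least 5% of the tissue pixels of each section. Ttr (transthyretin) and Rbp4 carry thyroid hormone and retinol in plasma. Apart from Ttr, these genes were all among those used to find the liver-like pixels, although not in the correlation.

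Other genes of the same roles were read from lists drawn up for this purpose. Of all genes tested, edgeR called 1.93% higher in each of the 2 stage comparisons, which is the share to set beside these counts. Of 9 other plasma carriers tested, edgeR called 2 higher at E11 (Vtn and Hpx) and 3 at E12 (Hpx, Agt and Gc). Hpx, which binds free heme, had 1 count in the E10 sections of 25 and 10 µm and 123 at E11, a ratio of 128 (22.6 to 5115; edgeR adjusted p = 0.0321). Of 7 other lipoprotein genes, Apoc1 and Mttp were called higher at E11 and Apoc1, Apoc2, Apoe and Apoh at E12. Apoc1 went from 2.28 to 24.0 CPM at E11 (edgeR adjusted p = 0.0264) and from 1.55 to 46.5 CPM at E12 (edgeR adjusted p = 0.0129). Of 10 other clotting genes, Kng1 and Serpinc1 were called higher at E11, and both again at E12 together with F12 and Proc. Serpinc1, which encodes antithrombin, went from 1.22 to 12.0 CPM and from 1.05 to 30.5 CPM. None of these genes was called lower. The lists' median log2 fold changes were 4.98, 4.49 and 6.80 at E11 (3.0, 3.87 and 4.39 with genes at 0 at their bounds) and 6.98, 6.94 and 7.43 at E12 (6.12, 6.94 and 7.35). Of their genes, 6, 3 and 5 were also used to locate liver.

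Among 12 transcription factors of hepatoblasts tested, Cebpa was called higher at E11, from 1 count to 68 (edgeR adjusted p = 0.0361). At E12 3 were called higher, among them Hnf4a and Foxa3. Of all genes tested, 1.93% were called higher by edgeR in each comparison. Hnf4a went from 1 count to 69, and Foxa3 went from 0 counts to 59, at least 91.9-fold higher. The list's median log2 fold change was 3.53 at E11 and 2.42 at E12.

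Markers of other tissues that sections could hold moved with stage as well. Of all 18233 genes tested, edgeR called 1.93% higher in each comparison, and it called 304 lower at E11 and 39 lower at E12. Of 10 red cell genes, 1 was called lower at E11 (Hbb-bt, from 492 to 148 CPM) and 5 higher at E12, among them Hbb-bs, Hbb-bt, Hba-a1 and Hba-a2. Their summed level was 6232 to 12368 CPM at E10, 5545 to 8566 at E11 and 70642 at E12. At E12 it was 137326 CPM in liver-like pixels and 39381 in other tissue, whereas in the E11 25 µm sections the 2 were closer (9109 and 8465, 7493 and 5285). In E11 10 µm replicate 2 the order was reversed, with 6247 CPM in liver-like pixels and 10028 in other tissue. Of 5 yolk sac endoderm genes tested, Spp2 was called higher at E11 and Spp2 and Pla2g12b at E12. The list's summed level was 24.3 to 48.0 CPM at E10, 38.5 to 46.8 at E11 and 48.0 at E12, and 0 to 3 of its 7 genes were at 0 in each library. Spp2 and Pla2g12b are made by hepatocytes too. Of 6 gut and lung endoderm genes, Nkx2-1 was called lower at E11, and of 7 septum and mesothelium genes, Lhx2 was called lower. The septum list as a whole had a median log2 fold change of 2.35 at E11 and 1.89 at E12, with Wt1 at 4.93 at E11 (edgeR adjusted p = 0.168) and Gata4 at 3.10 (edgeR adjusted p = 0.267). The gut list's medians were -0.32 and -0.91. Lhx2 and Nkx2-1 also mark parts of the forebrain, Nkx2-1 the thyroid too. Of 8 heart muscle and 4 choroid plexus genes, 0 were called in either comparison by edgeR, with an unadjusted p under 0.05 for 0 and 2 genes. DESeq2 was not read for these lists. Heart genes were lower in liver-like pixels than elsewhere in each of the 4 sections, for example 845 against 3193 CPM in E11 25 µm replicate 1. The part of these tissues in the members' values was not tested.

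Genes next to the members were read for the same libraries. Serpind1 lies inside Pi4ka, a lipid kinase gene on the opposite strand. Pi4ka held 53.5 to 78.5 CPM at E10, 49.5 to 82.5 at E11 and 56.2 at E12, and 18.6%, 12.9%, 47.5% and 31.0% of its counts were in liver-like pixels, close to the shares of all counts there. Plrg1, a splicing gene beside Fgb, was likewise at 63.0 to 102 CPM at E10 and 66.8 at E12. Afm (afamin), a relative of Alb beside Afp, had 8, 7 and 8 counts in the E11 sections with a patch and 18 at E12, of which 100%, 71.4%, 75% and 77.8% were in liver-like pixels.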

How the data were processed

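Counts of transcripts per gene symbol and pixel were deposited by the authors, 1 table per library, with no normalization; every value was a whole number of at least 0. The submitters' processing notes name CASAVA 1.8.2 and GRCh38, a human build, although the samples and symbols are mouse. The aligner, annotation, use of strand and collapsing of duplicates are not given in the sources used here. The 4 antibody-tag libraries were not used. Of 16 columns named by Ensembl identifier, 15 were added to their symbol. Pixels whose total reached 0.1 times the 95th percentile over pixels were kept as tissue, and their counts were summed per library. Sums were tested with edgeR 4.0.16 (limma 3.58.1, R 4.3.3; quasi-likelihood test, TMM, filter by group, robust fit) over 6 groups of stage and width in 11 libraries, which left 5 residual degrees of freedom. Two-sided p-values were adjusted over 18233 genes by Benjamini-Hochberg, with 0.05 as threshold. The lone E12 and E10 25 µm libraries were assumed to vary like the others. DESeq2 1.42.0, other scalings and filters, other pixel rules and leaving out each library in turn were alternatives. CPM are counts per 1e6 tissue counts. A fold against 0 counts uses a floor of 3 counts over the pooled group. The promoter table is from RefSeq (GRCm38.p6) and matched all 10 members; gene positions are from GENCODE M21 (GRCm38) and did not enter the counts. The fit and the patch rule were tested on simulated data. All 10 genes are named, with called genes of the lists (plasma carriers, lipoprotein, clotting, hepatoblast transcription factor, red cell, yolk sac endoderm, gut and lung endoderm, septum and mesothelium, heart muscle and choroid plexus genes), the 8 genes most like the members, and genomic neighbours. The members, lists and rules were chosen with earlier results of these data known. Replicate numbers come from the titles at E11 only. Depth per library limits precision as given with the counts and intervals. A few genes of the red cell and transcription factor lists are counted but not reported here by name.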

Additional observations from a re-analysis of the deposited data

Results flagged for a closer look

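A library that stood apart within a stage was looked for in the 14 sets of 1 member and 1 stage with 4 or 6 libraries and more than 3 counts in any of them, by comparing its gap to the nearest library with the whole range. For normally distributed values, chance gives about 1 in 20 such sets. These counts hold many zeros, so that rate does not apply to them, and a set with counts in 1 library only is always flagged. Of the 14 sets 2 were flagged, both for E10 50 µm replicate 3. Afp held 2.16 CPM there (23 counts), while the other 5 E10 libraries held 0 to 0.167 CPM. Alb held 1.22 CPM there (13 counts), while the other 5 had 0 counts. The 2 genes are neighbours in the genome and both values come from 1 library, so they are not independent. The section had 839 tissue pixels, no liver-like pixel, and 1 count at most of either gene in a pixel. Of the 10 members, 0 were called for a stage change that differed between widths, and for 5 of them the test could not call one.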

How the results depend on the processing

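Counts of called members depended on the libraries and the tool. For E11 against E10, with 2 called, DESeq2 called 7, and leaving out 1 library gave 0 to 9. For E12 against E10, with 2 called, DESeq2 called 6, and leaving out 1 library gave 1 to 10. For E11 10 µm against 25 µm, with 0 called, leaving out 1 library gave 0 to 5 (5 without 10 µm replicate 2). Over all genes, with 656, 390 and 378 called, no filter gave 1988, 1328 and 870, DESeq2 1392, 526 and 567, and leaving out 1 library 144 to 1465, 98 to 969 and 33 to 463. Every member's fold change kept its direction in the 2 stage comparisons under the alternatives run. Between the widths, where no member was called, directions changed. Under the replicate block the log2 values were -1.45 (Afp), -1.28 (Alb), -1.49 (Apoa2), -0.79 (Fga), -0.72 (Serpind1) and -0.062 (Nr1h5), and with no filter -0.0014 (Serpind1). Leaving out 1 library gave -4.59 to 1.51 (Afp), -5.65 to 1.18 (Alb), -4.65 to 0.72 (Apoa1), -4.98 to 1.19 (Apoa2), -4.32 to 0.83 (Fgg), -6.47 to 0.75 (Fgb), -9.22 to 1.20 (Fga), -3.86 to 0.99 (Serpind1) and -3.12 to 1.72 (Nr1h5). The cause was not tested. With the title numbers of E11 as a replicate block, edgeR called 2, 3 and 0 members in the 3 comparisons; same-numbered libraries deviated with r = 0.0766 over genes, so they share a number only, and the E12 fit with the block was added after seeing the data. The count of 4 sections with a patch was the same under all 6 alternatives. The median share in liver-like pixels was 86.3% (E11 25 µm replicate 1), 94.3% (E11 10 µm replicate 2) and 94.0% (E12) with a minimum of 500 locator CPM, and 75.8% and 80.9% in the latter 2 with 2000. Without Vtn and Trf, left out after seeing the data, these 2 were 88.2% and 86.0%. In 2 x 2 blocks of pixels the median r of member pairs was 0.444, 0.584, 0.290 and 0.607.

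Limits: 1 library at E12 and 1 at E10 25 µm, no shared width over all stages, unknown embryo and region of each section, and few counts of Nr1h5 and Ahsg at E11 limit what the comparisons can show.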
